A study of Mus musculus with 9 samples.

Results

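The genes of inhibitory transmission by GABA and glycine were followed across 3 regions of the mouse brainstem. The group was a list of 33 genes for the synthesis, transport, breakdown and receptors of these transmitters, the scaffold of their synapses and the chloride transporters. Its members on the array were all probes whose array name equals a listed gene. That rule took 61 of the 45281 probes, for 31 of the 33 genes, out of 30854 names on the array. Gabra2 and Gabre had no probe under that name. The array writes its names in capitals (ALDH5A1, SLC6A5 and SLC12A2 for Aldh5a1, Slc6a5 and Slc12a2). Total RNA came from male mice aged 8 weeks of the Chat-Cre:Ai9 strain, in which Cre follows the gene of the acetylcholine-synthesizing enzyme and Ai9 adds a tdTomato reporter in cells with Cre. All arrays share these alleles, and none came from mice without them. The regions are named target, dorsal and ventral in the labels, with 3 arrays each and 9 in all. Equal array numbers mark one mouse, so 3 mice gave all the tissue. The sources used here do not say what the target region is or how the tissue was cut out.

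GABA is made from glutamate by glutamate decarboxylase, and glycine is taken up from outside the neuron. A single vesicular transporter loads both into synaptic vesicles, so one terminal can release either or both. GABA-A and glycine receptors are chloride channels held at the synapse by the scaffold protein gephyrin, while GABA-B receptors act through G proteins. In the brainstem, glycinergic and GABAergic neurons shape breathing, motor and sleep circuits.

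Values below are log2 levels after background correction and quantile normalization between arrays, and each level is comparable only between arrays for the same probe. A probe was tested when it was above background on at least 3 of the 9 arrays (detection p below 0.05), which held for 20461 probes of the array and for 35 of the 61 member probes, covering 23 genes. Differences between regions were tested with limma over all 20461 probes, and a probe passed at a Benjamini-Hochberg adjusted p below 0.05. Each of the 9 arrays had 16703 to 19945 probes above background, and pairs of arrays correlated between 0.892 and 0.961. With 3 arrays per region, the number of arrays limits the precision. In bulk tissue, fewer cells of a type and less RNA per cell cannot be told apart.

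Few probes of the inhibitory gene set differed between regions by the test. Of the 35 probes, 0 passed between target and dorsal, where 0.0586% of all tested probes passed. Between target and ventral 1 passed, lower in target, which is 2.86% of the 35. Of all tested probes 1.78% passed in that pair, with 0.616% lower and 1.17% higher in target. Between dorsal and ventral 3 passed, all lower in dorsal, which is 8.57% of the 35. Of all tested probes 7.98% passed there, with 3.92% lower and 4.06% higher in dorsal, so the members' share over both directions was near that of the array. With the mouse as a block 0, 1 and 2 of 35 passed for target minus dorsal, target minus ventral and dorsal minus ventral, against 0.0147%, 0.753% and 6.58% of all tested probes. At an unadjusted p below 0.05 there were 3, 7 and 8 of 35 in those pairs, against 9.6%, 16% and 22.2% of all tested probes. The probes that passed belong to Aldh5a1, an enzyme of GABA breakdown, Slc6a5, the neuronal glycine transporter, and Slc12a2, a chloride importer.

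The median difference of the 35 probes was 0.00 for target minus dorsal, -0.09 for target minus ventral and -0.01 for dorsal minus ventral, against -0.02, 0.02 and 0.04 over all tested probes. Differences smaller than 0.5 on the log2 scale were found for 31, 29 and 28 of the 35 probes (88.6%, 82.9% and 80%, against 81.5%, 75.2% and 68.8% of all tested probes). The 95% interval lay within 1 log2 unit on either side of 0 for 27, 23 and 23 of them, and for the others the interval reached past 1 log2 unit on at least 1 side.

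**Figure D1:**
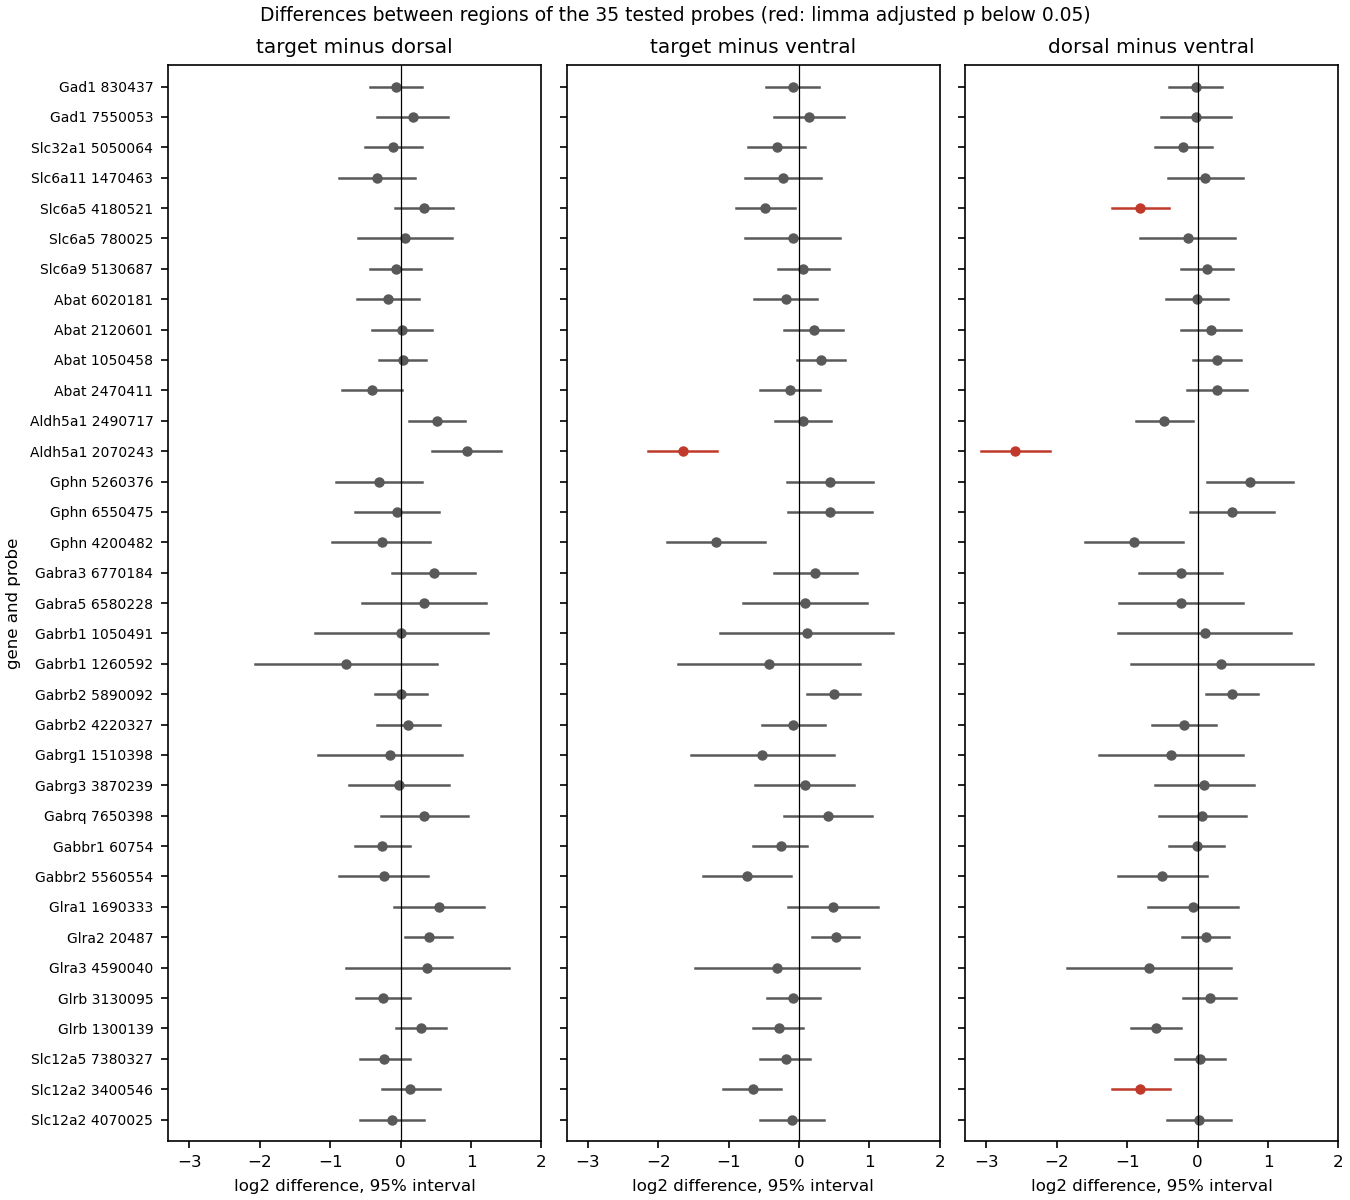
Log2 differences of the 35 tested probes for target minus dorsal, target minus ventral and dorsal minus ventral (x axis, dot), with 95% limma intervals (line), 1 row per gene and probe ordered by role. Red marks an adjusted p below 0.05, which 0, 1 and 3 probes reached, and most intervals cross 0.

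**Figure D2:**
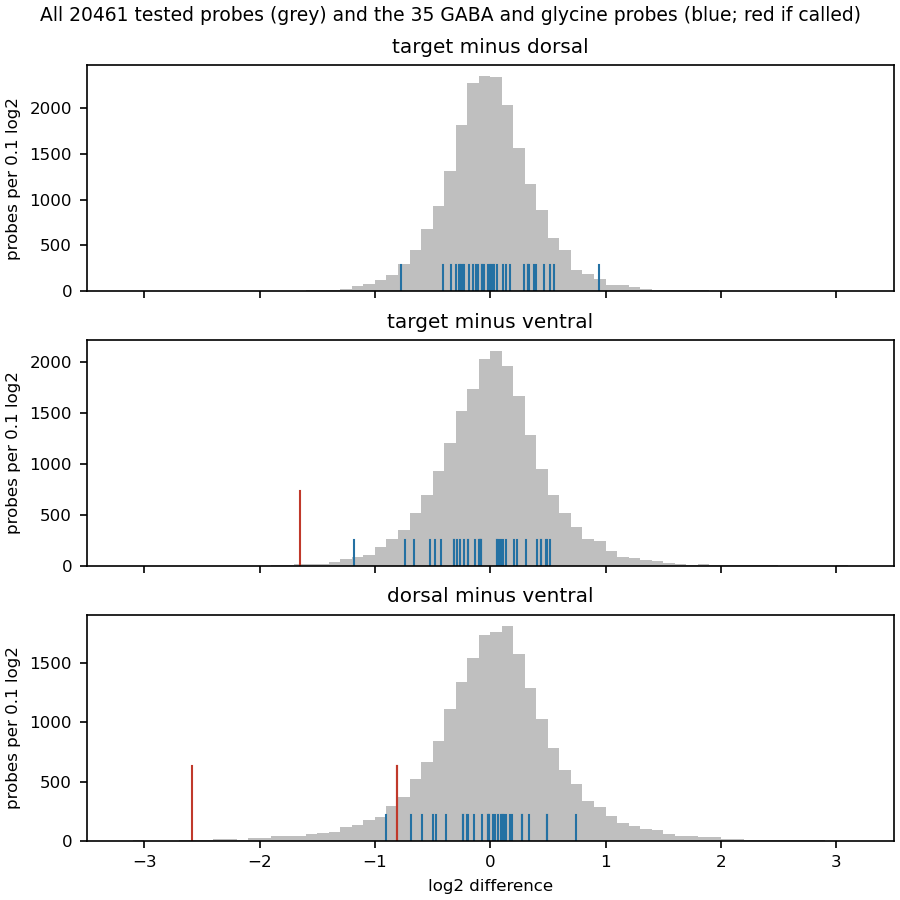
Number of tested probes per 0.1 log2 step of difference (grey bars, y axis) over all 20461 tested probes, with the 35 GABA and glycine probes as short blue lines and the probes that passed as taller red lines. The Aldh5a1 probe lies at -1.65 for target minus ventral and -2.59 for dorsal minus ventral, and all other member differences lie between -1.18 and 0.94.

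The probes of the enzymes that make GABA passed in no pair. Gad1 encodes the decarboxylase that supplies most GABA in the neuron. Its brighter probe (830437) read 10.52, 10.28 and 10.63 in target, 10.55, 10.51 and 10.57 in dorsal and 10.51, 10.51 and 10.68 in ventral. The 3 regions overlapped, and the differences were -0.07 for target minus dorsal (95% interval -0.44 to 0.30), -0.09 for target minus ventral (-0.47 to 0.28) and -0.02 for dorsal minus ventral (-0.40 to 0.35). The second Gad1 probe (7550053) differed by 0.17, 0.14 and -0.02 in the same order of pairs, with adjusted p of at least 0.805. Gad2, the decarboxylase tied to synaptic vesicles, had 1 probe under its own name, above background on 1 of 9 arrays. A further probe (430678), which the array lists under a clone name that the RefSeq gene table gives as a synonym of Gad2, lies outside the rule. It was above background on all 9 arrays and averaged 11.93 ± 0.11 in target, 11.90 ± 0.14 in dorsal and 11.80 ± 0.09 in ventral (SD, n = 3 each), with differences of 0.04, 0.14 and 0.10 and adjusted p of at least 0.742. The 2 Gad2 probes thus gave different answers on whether the gene was above background.

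Of the 5 tested probes for vesicular loading and uptake, 1 passed, a probe of the neuronal glycine transporter. Slc32a1, the vesicular transporter of both transmitters, read 11.13 ± 0.14 in target, 11.24 ± 0.18 in dorsal and 11.44 ± 0.17 in ventral (SD, n = 3 each). It was -0.31 in target minus ventral (SE 0.18, adjusted p = 0.451), -0.20 in dorsal minus ventral and -0.11 in target minus dorsal, none of which passed. Slc6a9, the mainly glial glycine transporter, read 12.13 ± 0.15, 12.20 ± 0.05 and 12.06 ± 0.09 in target, dorsal and ventral, and its 3 intervals stayed within -0.44 to 0.50. Slc6a11, a GABA transporter found mainly on astrocytes, had 8 of 9 arrays above background and a largest difference of -0.34 (target minus dorsal, adjusted p = 0.691). Slc6a13, a GABA transporter of the meninges, was above background on 0 of 9 arrays.

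Slc6a5 takes glycine back into glycinergic terminals and marks those neurons. Its brighter probe (4180521) read 9.11, 9.42 and 9.26 in target, 8.98, 8.70 and 9.12 in dorsal and 9.68, 9.65 and 9.89 in ventral. Every ventral array lay above every array of the other regions, and target and dorsal overlapped by a small margin. By this probe Slc6a5 was lower in dorsal than in ventral, with a log2 difference of -0.81 (SE 0.18, 1.75-fold, adjusted p = 0.0277). In the 3 mice the difference was -0.71, -0.95 and -0.77. A block for the mouse gave an adjusted p of 0.0513, which no longer passes. The difference was -0.48 for target minus ventral (SE 0.18, adjusted p = 0.243) and 0.33 for target minus dorsal (adjusted p = 0.603), and neither passed. The second Slc6a5 probe (780025) read 7.51 ± 0.33 in target, 7.46 ± 0.10 in dorsal and 7.60 ± 0.59 in ventral, with a dorsal minus ventral difference of -0.14 (95% interval -0.81 to 0.53, adjusted p = 0.826). The call also did not pass with median centring in place of quantile normalization (-0.39, adjusted p = 0.311, where the median of all tested probes was 0.36), with only the dorsal and ventral arrays in the fit (adjusted p = 0.0663), or without dorsal array 1 (0.0645), dorsal array 2 (0.101), ventral array 1 (0.0598), ventral array 2 (0.0557) or ventral array 3 (0.0725). With the mean of both probes the difference was -0.48 (adjusted p = 0.207).

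Of the enzymes that break GABA down, 1 probe stood apart from the group. Abat, the transaminase that removes the amino group of GABA, had 4 tested probes, and none passed in any pair. Its brightest probe (6020181) averaged 10.92 ± 0.30 in target, 11.10 ± 0.15 in dorsal and 11.12 ± 0.09 in ventral, and over the 4 probes differences ran from -0.41 to 0.31. Aldh5a1 encodes succinate semialdehyde dehydrogenase, the mitochondrial enzyme of the next step. Aldh5a1 probe 2070243 read 8.74, 9.31 and 8.95 in target, 8.18, 8.06 and 7.94 in dorsal and 10.34, 10.94 and 10.67 in ventral. The 3 regions did not overlap, with ventral highest, target between and dorsal lowest. Before normalization the same probe had bead intensities of 493.9, 749.7 and 594.3 in target, 442.5, 387.4 and 434.0 in dorsal and 1537.8, 2321.7 and 1507.0 in ventral.

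Aldh5a1 by this probe was lower in dorsal than in ventral, with a log2 difference of -2.59 (SE 0.22, 6.02-fold, adjusted p = 0.000435). It was also lower in target than in ventral, with -1.65 (SE 0.22, 3.14-fold, adjusted p = 0.010). A block for the mouse kept both calls. The drop was seen in 3 of 3 mice for both pairs, by -2.16, -2.88 and -2.73 for dorsal minus ventral and by -1.60, -1.63 and -1.73 for target minus ventral. For target minus dorsal the difference of 0.94 did not pass (SE 0.22, adjusted p = 0.202). The moderated F test over the 3 regions was passed by this probe alone of the 35 (adjusted p = 0.00121), against 5.23% of all tested probes, and 8 of 35 had an unadjusted F test p below 0.05, against 19.5% of all tested probes. The target to ventral difference did not pass without target array 3 (-1.63, adjusted p = 0.0553), and the dorsal to ventral difference passed in each of 17 alternative settings.

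The other tested Aldh5a1 probe had smaller differences, and none passed. Probe 2490717, the brighter one, read 10.72, 10.54 and 10.53 in target, 9.93, 10.12 and 10.17 in dorsal and 10.79, 10.45 and 10.39 in ventral. Its dorsal arrays were the lowest 3, and target and ventral overlapped. The differences were 0.52 for target minus dorsal (adjusted p = 0.400), 0.06 for target minus ventral (0.916) and -0.47 for dorsal minus ventral (0.161). Target minus dorsal and dorsal minus ventral thus had the sign of the first probe, in 3 of 3 mice each. The gap between the 2 probes within an array (brighter minus dimmer) was 1.98, 1.23 and 1.59 in target, 1.75, 2.06 and 2.24 in dorsal and 0.45, -0.49 and -0.29 in ventral. The gap differed by 1.71 for target minus ventral and 2.12 for dorsal minus ventral, each with an exact two-sided permutation p of 0.1, the smallest that 3 against 3 arrays allow (adjusted p = 0.277 over 36 such tests). The remaining Aldh5a1 probes were above background on 1 and 0 of 9 arrays.

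**Figure D3:**
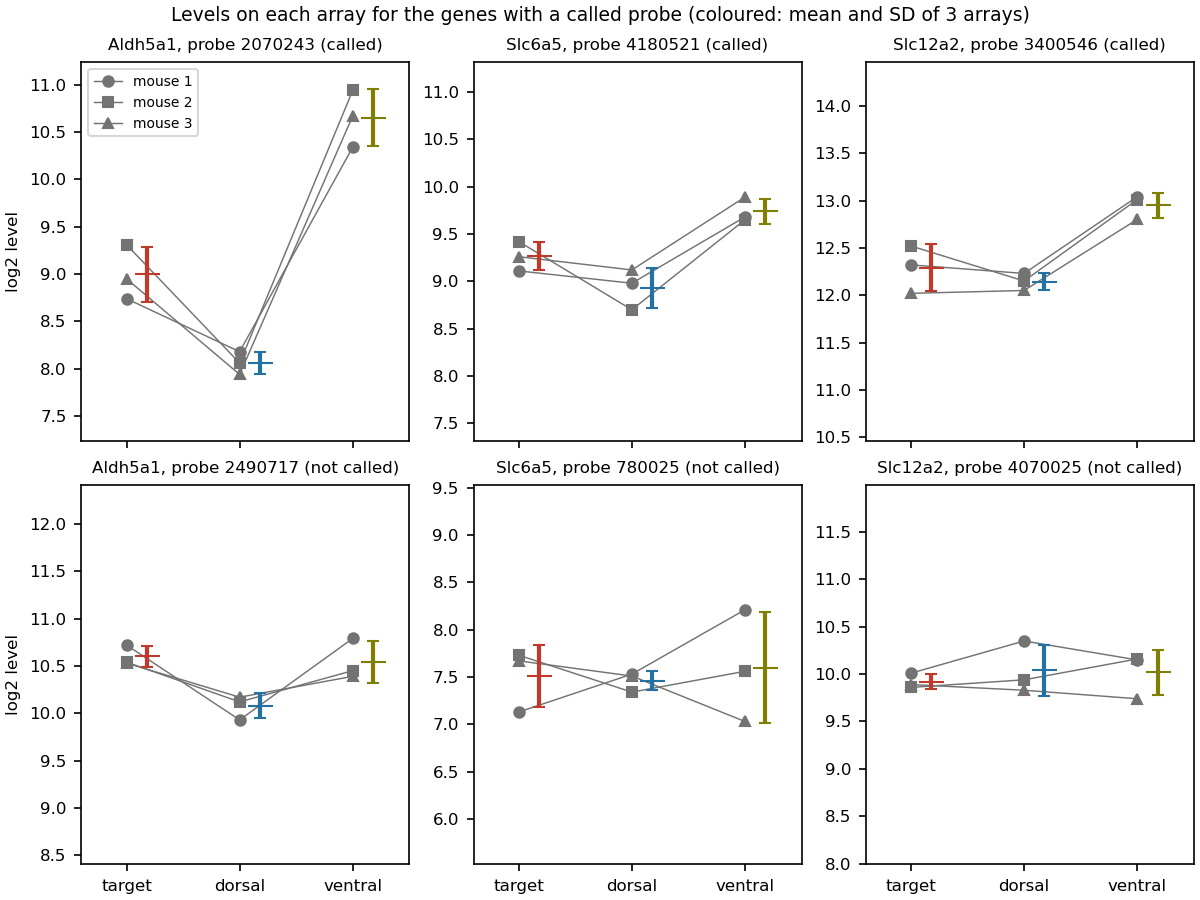
Log2 level on each array for the 2 tested probes of Aldh5a1, Slc6a5 and Slc12a2 in target, dorsal and ventral, with grey symbols and lines for the 3 mice and coloured bars for the mean and SD of 3 arrays. All panels span 4 log2 units, and the upper row, the probe that passed, is highest in ventral, while in the lower row, the other probe, the ventral arrays overlap the target arrays.

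Promoter sequences are shown for Aldh5a1 and Slc6a5, 2 of the 3 genes with a passing probe, and for Gad1, which passed in no pair. RefSeq on GRCm38.p6 gave a promoter (250 bases before to 50 after the start) for 29 of the 33 genes, and each is written 5′ to 3′ on the strand of the gene. Capitals mark every match, on either strand, to 5 motifs: the TATA box TATAAA, the box known as CCAAT, the GC box GGGCGG, and the E-boxes CAGCTG and also CACGTG. No matches overlapped.
Aldh5a1, chr13:24937612-24937911, minus strand: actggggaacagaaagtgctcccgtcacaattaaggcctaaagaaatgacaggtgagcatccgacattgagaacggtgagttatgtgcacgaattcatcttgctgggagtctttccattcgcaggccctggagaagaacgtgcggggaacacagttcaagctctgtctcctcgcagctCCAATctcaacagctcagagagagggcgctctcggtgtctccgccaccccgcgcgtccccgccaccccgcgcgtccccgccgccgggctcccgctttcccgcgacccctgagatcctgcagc
Slc6a5 first start, chr7:49910049-49910348, plus strand: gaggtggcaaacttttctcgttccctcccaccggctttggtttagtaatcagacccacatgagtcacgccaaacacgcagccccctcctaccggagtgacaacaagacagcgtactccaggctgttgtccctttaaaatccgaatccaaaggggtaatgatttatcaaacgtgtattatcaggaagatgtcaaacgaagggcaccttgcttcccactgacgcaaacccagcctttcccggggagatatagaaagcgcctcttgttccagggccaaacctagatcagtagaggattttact
Slc6a5 second start, chr7:49911450-49911749, plus strand: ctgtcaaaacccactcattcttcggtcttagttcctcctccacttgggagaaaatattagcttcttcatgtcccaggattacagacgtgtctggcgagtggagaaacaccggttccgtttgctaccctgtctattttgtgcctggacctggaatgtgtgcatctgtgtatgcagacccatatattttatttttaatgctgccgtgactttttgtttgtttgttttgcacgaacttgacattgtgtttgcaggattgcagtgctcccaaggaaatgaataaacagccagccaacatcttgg
Gad1, chr2:70561879-70562178, plus strand: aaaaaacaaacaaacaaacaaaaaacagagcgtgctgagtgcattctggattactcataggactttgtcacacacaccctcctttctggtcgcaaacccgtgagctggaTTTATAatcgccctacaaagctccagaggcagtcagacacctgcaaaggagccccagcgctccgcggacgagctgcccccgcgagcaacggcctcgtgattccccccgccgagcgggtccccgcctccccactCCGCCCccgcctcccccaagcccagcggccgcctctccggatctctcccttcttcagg
The Aldh5a1 promoter held CCAAT at -72 from the start, a motif in 37.4% of the 32851 promoters of the table. Gad1 held TATAAA on the opposite strand at -141 (a motif in 13.6% of promoters) and GGGCGG on the opposite strand at -8 (35.7%). Neither Slc6a5 start had any of the 5 motifs in this window, and CAGCTG (16.3% of promoters) and CACGTG (7.15%) were in none of the 4 windows. The Aldh5a1 window was 60.3% G and C with 24 CpG sites and the Gad1 window 60.0% with 21, against 49.7% with 12 and 44.3% with 7 for the Slc6a5 starts. These are features of the sequence, and the arrays do not measure what binds there.

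Gephyrin, encoded by Gphn, anchors glycine receptors and many GABA-A receptors. Its 2 brighter probes (5260376 and 6550475) both gave 0.44 for target minus ventral (adjusted p = 0.484 and 0.476), and 0.74 and 0.49 for dorsal minus ventral (0.145 and 0.332). The dim Gphn probe (4200482) had negative differences in both pairs. It read 5.04, 5.22 and 5.24 in target, 4.92, 5.50 and 5.90 in dorsal and 6.79, 6.47 and 5.78 in ventral. It was above background on 0 target, 1 dorsal and 3 ventral arrays, so it met the filter only through ventral, where it was high. The observed target mean was at least 1.54-fold below the ventral mean (adjusted p = 0.0981, not passing). For dorsal minus ventral the dim probe was at -0.90 (SE 0.31, adjusted p = 0.120).

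Of the 14 GABA-A receptor subunits on the list, 7 had a tested probe, and none of their 9 tested probes passed in any pair as fitted here. Gabrb2, a beta subunit common in adult brain, had the lowest adjusted p of the receptor class. Its brighter probe (5890092) averaged 10.03 ± 0.09 in target, 10.02 ± 0.09 in dorsal and 9.53 ± 0.15 in ventral (SD, n = 3 each). All 3 ventral arrays lay below the others. The difference was 0.49 for target minus ventral (SE 0.16, adjusted p = 0.175) and 0.49 for dorsal minus ventral (SE 0.16, adjusted p = 0.112), and neither passed. The dorsal minus ventral difference passed without background correction (0.41, adjusted p = 0.0311), with median centring (0.91, 0.0317, where the median of all tested probes was 0.36) and on the values the authors normalized (0.42, 0.0353). The second Gabrb2 probe (4220327) was -0.08 and -0.19 in those pairs, and a probe under a synonym (70164) was -0.35 and 0.10.

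Gabrb1, another beta subunit, had the 2 most scattered of the tested member probes. Its dim probe (1260592) read 5.51, 5.82 and 5.58 in target, 5.12, 6.94 and 7.16 in dorsal and 7.12, 5.70 and 5.37 in ventral, with 1, 2 and 1 arrays above background. The spread within dorsal and within ventral exceeded the difference of -0.77 for target minus dorsal (SE 0.57, adjusted p = 0.708). The brighter Gabrb1 probe (1050491) differed by no more than 0.11, with wide intervals (-1.12 to 1.34 for target minus ventral). A Gabrb1 probe under a synonym (1050398), outside the rule, was above background on 5 of 9 arrays. Its SDs were 0.29, 0.40 and 0.36 in target, dorsal and ventral. It differed by -0.10, 0.10 and 0.20 for target minus dorsal, target minus ventral and dorsal minus ventral, and none passed. Among the alpha subunits, Gabra3 read 7.67 ± 0.47, 7.21 ± 0.21 and 7.45 ± 0.25 in target, dorsal and ventral, and Gabra5 6.38 ± 0.35, 6.04 ± 0.48 and 6.28 ± 0.75. The gamma subunit genes Gabrg1 and Gabrg3 had largest differences of -0.52 (target minus ventral) and 0.09 (dorsal minus ventral). Gabrq, the theta subunit, differed by 0.41 for target minus ventral (adjusted p = 0.518). Gabra4 was above background on 1 of 9 arrays, the 2 Gabrd probes on 2 and 0, and Gabra6, Gabrr1 and Gabrr2 on 0. Gabra6 is known from cerebellar granule cells and the rho subunits Gabrr1 and Gabrr2 from the retina.

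Neither subunit of the GABA-B receptor passed in any pair. Gabbr1, the subunit that binds GABA, averaged 8.49 ± 0.14 in target, 8.74 ± 0.07 in dorsal and 8.75 ± 0.18 in ventral. Gabbr2, the subunit that couples to the G protein, read 6.41, 6.41 and 6.47 in target, 6.78, 6.73 and 6.52 in dorsal and 6.68, 7.86 and 6.98 in ventral. All target arrays of Gabbr2 were lower than all others, and 1 ventral array lay far above the rest. Gabbr2 was -0.74 in target minus ventral (SE 0.28, adjusted p = 0.234) and Gabbr1 -0.26 (SE 0.17, adjusted p = 0.509).

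None of the 5 tested glycine receptor probes passed, although Glra2 separated target from the other regions on every array. Glra2, the alpha subunit best known from the immature nervous system, was the tightest member, with a pooled SD within regions of 0.05. It read 10.89, 10.83 and 10.91 in target, 10.42, 10.49 and 10.51 in dorsal and 10.32, 10.42 and 10.33 in ventral. All target arrays lay above all others. The difference was 0.40 for target minus dorsal (SE 0.15, adjusted p = 0.441) and 0.52 for target minus ventral (SE 0.15, 1.43-fold, adjusted p = 0.125), above 0 in 3 of 3 mice for both. The target to ventral difference passed without background correction (0.47, adjusted p = 0.0189) and on the values the authors normalized (0.47, adjusted p = 0.0234). Glra1, the alpha subunit of adult glycinergic synapses, read 6.11, 6.20 and 5.90 in target, 5.63, 5.51 and 5.42 in dorsal and 5.41, 6.27 and 5.08 in ventral. It was above background on 3 target arrays, on 0 dorsal arrays and on 1 ventral array. Glra1 thus met the filter only through target, where it was high. The observed target mean was at least 1.35-fold that in dorsal (adjusted p = 0.581, not passing). That bound allows for the detection limit only, and the interval for target minus dorsal ran from -0.09 to 1.19. Glra3 scattered widely, with 5.92 ± 0.77, 5.54 ± 0.54 and 6.23 ± 0.90 in target, dorsal and ventral. The 2 Glra4 probes were above background on 1 and 0 of 9 arrays.

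Glrb encodes the beta subunit that ties glycine receptors to gephyrin, and its 2 probes had opposite signs for target minus dorsal and dorsal minus ventral. Probe 1300139 averaged 7.71 ± 0.08 in target, 7.41 ± 0.07 in dorsal and 8.00 ± 0.13 in ventral. Its dorsal minus ventral difference of -0.59 (SE 0.16, 3 of 3 mice) had an adjusted p of 0.0552, just over the limit, and 0.0932 with the mouse as a block. It passed with no filter on dim probes (adjusted p = 0.0323) and with a stricter one (0.0255). The brighter probe (3130095) was 0.17 for the same pair (SE 0.17, adjusted p = 0.602), with 3 of 3 mice above 0. For target minus dorsal probe 1300139 gave 0.29 and probe 3130095 -0.25, and for target minus ventral both were negative (-0.29 and -0.08).

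The chloride transporters set whether GABA and glycine inhibit. Slc12a5, the neuronal exporter, averaged 12.51 ± 0.14 in target, 12.74 ± 0.04 in dorsal and 12.70 ± 0.08 in ventral, and its intervals ran from -0.58 to 0.39. Slc12a2, the importer, which glia and choroid plexus also express, read 12.32, 12.52 and 12.02 in target, 12.23, 12.15 and 12.05 in dorsal and 13.04, 13.01 and 12.80 in ventral by its brighter probe (3400546). All ventral arrays lay above all others, while target and dorsal overlapped. Slc12a2 was lower in dorsal than in ventral, with a log2 difference of -0.81 (SE 0.18, 1.75-fold, 3 of 3 mice, adjusted p = 0.0292, and 0.0384 when blocked by mouse). For target minus ventral it was -0.66 (SE 0.18, adjusted p = 0.114), which did pass without background correction (-0.64, adjusted p = 0.0203) and on the values the authors normalized (-0.65, 0.0233). The other tested Slc12a2 probe (4070025) averaged 9.92 ± 0.08 in target, 10.04 ± 0.27 in dorsal and 10.02 ± 0.24 in ventral, with 0.02 for dorsal minus ventral (adjusted p = 0.966). The dorsal to ventral difference of probe 3400546 did not pass with median centring (-0.42, adjusted p = 0.284) or without target array 1 (0.0501), dorsal arrays 1, 2 or 3 (0.0597, 0.0854 and 0.0924) or ventral arrays 1 or 2 (0.0826 and 0.0772). The mean of both probes gave -0.39 (adjusted p = 0.245).

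**Figure D4:**
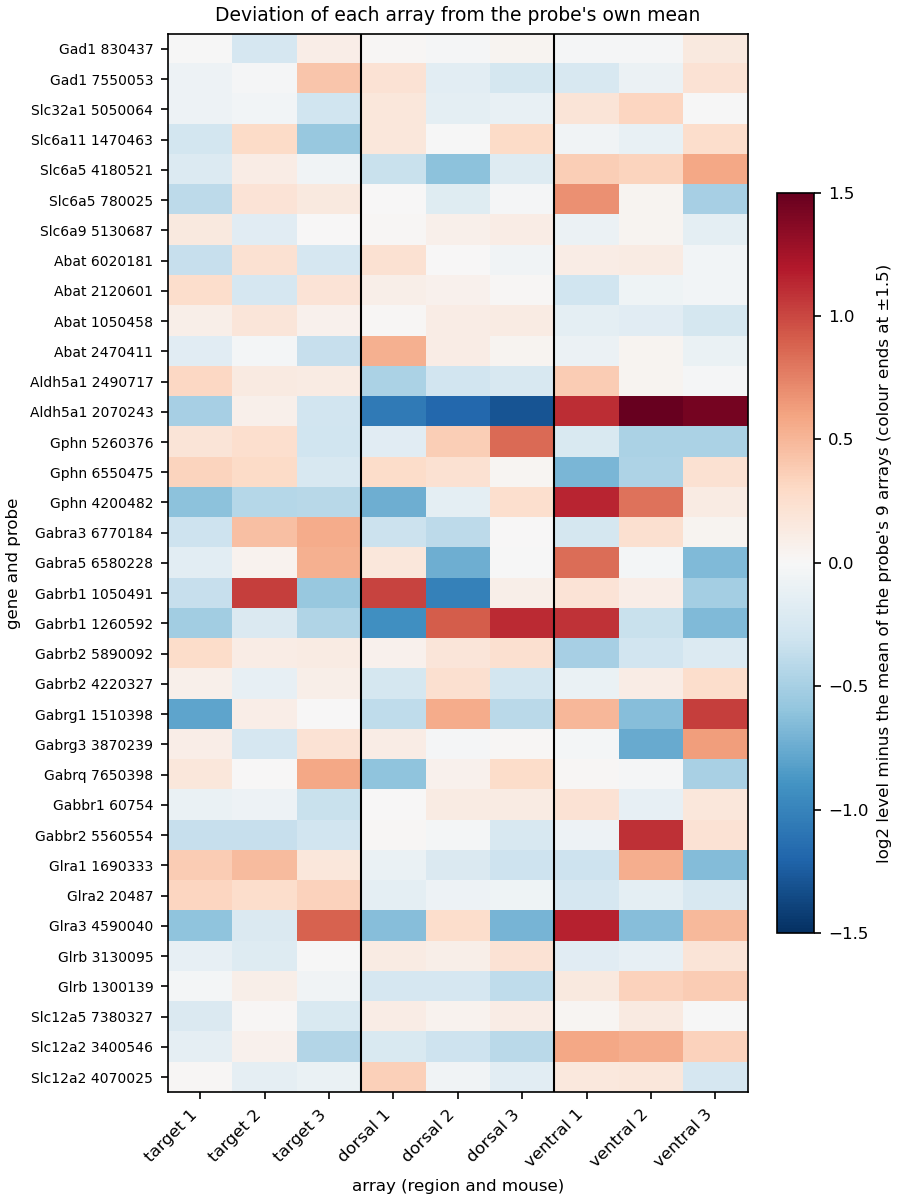
Log2 level of each of the 35 tested probes (rows, by role) on each of the 9 arrays (columns, target, dorsal, ventral), minus the mean of that probe over the 9 arrays; blue is below and red above the mean. Aldh5a1 probe 2070243 is blue on all 3 dorsal arrays and red on all 3 ventral arrays, and rows of dim probes such as Gabrb1 vary within a region.

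The passing probes were compared with the other probes of their genes, because 9 of the 23 genes had more than 1 tested probe. Each of the 3 genes with a passing probe had another tested probe, and in 0 of 3 cases did it pass the same way between dorsal and ventral. In 2 of those 3 it had the same sign. Over the whole array, 739 probes that passed between dorsal and ventral had another tested probe under the same array name, and for 60 of them (8.12%) another one passed in the same direction. For target against ventral these were 6 of 163 (3.68%). The brightest tested probe of each member gene was also paired with each of its other tested probes. Of these 12 pairs, 6, 5 and 5 had the same sign for target minus dorsal, target minus ventral and dorsal minus ventral. A difference of 1 probe is thus reported here as that probe's, not as the level of the gene.

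The pattern of Slc6a5 probe 4180521 over the 9 arrays was set against all other probes as a description. The member probes most like it were Aldh5a1 2070243 (Pearson r = 0.924), Glrb 1300139 (0.890), Slc12a2 3400546 (0.815), Gphn 4200482 (0.588) and Aldh5a1 2490717 (0.545). The 5 other probes most like it were those of Rfc1 (0.984), Npm1 (0.979), TMEM5 (0.971), 2610040L17RIK (0.967) and Scamp2 (0.967). Its own second probe gave 0.181. The 9 arrays share 3 mice and 3 regions, so these values follow the region means.

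Other genes of inhibitory transmission were read from a list of 54 partners (receptor trafficking, glutamate supply, glycine cleavage and regulators of chloride transport). This list was chosen with earlier results of these data known, so the shares below are only a description. The partners had 60 tested probes of 40 genes. Between target and dorsal 1 passed, higher in target (1.67%, against 0.044% of all tested probes higher in target), and 0 when blocked by mouse. It was Trak2, an adaptor that links cargo to kinesin, by probe 1030687 (2.10, SE 0.27, adjusted p = 0.0435), whose target arrays read 8.41, 8.77 and 8.83 and lay above all 6 others. The same Trak2 probe was the 1 that passed between target and ventral. That was 1.67% of the partner probes, against 1.78% of all tested probes (1.17% higher in target), so the partners' share was near that of the array. The Trak2 probe was at 1.50 in that pair (SE 0.27, adjusted p = 0.0329), and its other probes were at -0.03 and 0.14. Between dorsal and ventral 1 was higher and 6 were lower in dorsal (11.7% together, against 7.98% of all tested probes), and 5 passed when blocked by mouse. The higher one was Maob, a monoamine oxidase that also takes part in making GABA from putrescine in astrocytes (0.98, adjusted p = 0.0494, and 0.0693 when blocked by mouse, which no longer passes, with its other tested probe at -0.21). The lower ones included Rdx, the radixin that anchors some GABA-A receptors (-1.55, adjusted p = 0.0019), and Gls2, a glutaminase (-1.34, adjusted p = 0.036), whose other tested probe was at -0.05. Oxsr1, a kinase of chloride cotransporters, was also among them, at least 1.75-fold lower in dorsal by the region means (adjusted p = 0.00962). Its probe was above background on 0 dorsal, 1 target and 3 ventral arrays, so it met the filter only through ventral, where it was high.

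Some markers of cell types passed between dorsal and ventral, and most did not. Of all tested probes 7.98% passed in that pair. Among the oligodendrocyte markers, all 6 of which were tested, Mbp (-0.93) and Mobp (-1.14) were lower in dorsal than in ventral, with summed linear levels of the 6 of 23200 to 24800 in target, 16400 to 19800 in dorsal and 27100 to 32600 in ventral. Cnp (-0.79), Mag (0.24) and Mog (0.73) of that list did not pass. Of 5 tested markers of all neurons, Eno2 (-0.74) and Stmn2 (-1.17) were lower in dorsal than in ventral, with sums of 8660 to 9420 in target, 6960 to 8080 in dorsal and 10100 to 11000 in ventral. Syt1 (-0.48), Tubb3 (-0.22) and Snap25 (0.14) of that list did not pass. The blood gene Hbb-b1 was higher in dorsal than in ventral (0.82). The meningeal gene Slc13a4 was higher in target than in ventral (2.28, adjusted p = 0.0168), a pair in which 1.78% of all tested probes passed. The Slc13a4 probe was above background on 3 target arrays and on 1 ventral array. Col1a1 (-0.74), Col1a2 (-0.78) and Dcn (-0.23) of the same list did not pass between target and ventral. No tested marker of astrocytes (6 of 6 tested), microglia (4 of 6), endothelial cells (5 of 5) or glutamatergic neurons (1 of 3, Slc17a6) passed in any pair. The sum over the 3 tested GABAergic and glycinergic markers (Gad1, Slc32a1 and Slc6a5) was 4200 to 4360 in target, 4100 to 4780 in dorsal and 5050 to 5350 in ventral. These 3 are member probes described above, so their sum is not a separate measure. The 3 tested choroid plexus and ependyma markers summed to 146 to 195 in target, 130 to 150 in dorsal and 121 to 236 in ventral. The part of these markers in the results for Aldh5a1, Slc6a5 and Slc12a2 was not tested. Of the forebrain markers 0 of 5 were tested, and of the brainstem markers Chat, Dbh, En2 and Hoxa5 were not, while Tph2, En1 and Hoxb2 were among those tested.

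As a description of the set, 11 of 35 probes (31.4%) had their target mean inside the span of the other regions, against 44.5% of all tested probes. The median SD within a region was 0.22 for the members and 0.35 for all tested probes, and the median size of the difference was 0.24, 0.26 and 0.20 against 0.23, 0.27 and 0.32. Behind each intensity of a tested member probe stood 20 to 75 beads, with a median of 43.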

How the data were processed

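Total RNA of 9 samples (3 regions from 3 mice) was labelled and hybridised to Illumina mouse BeadChips. The deposited linear intensities were written by GenomeStudio 1.6.0, per the file headers, in an export without normalization and in another after quantile normalization. Per the file headers the export also holds a detection score near 1 for the brightest probes, and the detection p used here was 1 minus that score. The deposited export gives the number of beads behind each intensity as well. A deposited unnormalized table equalled the first export, and the series matrix equalled the quantile export (largest difference 0 over 45281 probes). Background subtraction before export is not stated in the sources used here.

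In R 4.3.3 with limma 3.58.1, neqc was run on the deposited intensities: normexp background taken from the detection p, an offset of 16, quantile normalization and log2. Probes with a detection p below 0.05 on at least 3 arrays were kept. lmFit and eBayes were run on all 9 arrays with region as the only term, with Benjamini-Hochberg adjustment over the 20461 probes in each pair (limit 0.05, intervals at 95%). Probe gaps were compared by exact permutation of arrays. Where a region had no array above background, the fold is a bound: the brighter region's mean over that of the dim region, in which a level under the array's lowest probe above background was raised to it. The bound allows for the detection limit only, not for the spread between arrays. The fit was tested on simulated data.

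Headers of the deposited unnormalized table name the mouse of each column, so equal numbers mark the same mouse. The same-mouse correlations of deviations from the region means ran from -0.0963 to 0.146. The mouse is therefore given as a block where it changes a call. Member genes, partner and marker lists, and the likeness to Slc6a5 were chosen with earlier results of these data known. Named genes were all members with a tested probe, with values per array for passing probes and the 3 largest differences per pair, and up to 4 passing partners per direction. A few passing or tested genes outside the member list are not reported here by name. Other values per array were added after they were seen. For markers, the brightest tested probe stands for the gene. Symbols follow RefSeq on GRCm38.p6. Alternatives covered the block, background correction, normalization, offset, filters, arrays in the fit and each array left out. The mean of a gene's probes was added after seeing the data.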

Additional observations from a re-analysis of the deposited data

How the results depend on the processing

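With 3 arrays per region, single calls rest on few values, and dim probes near background have wide intervals. Of the 4 passing differences of member probes, Aldh5a1 dorsal minus ventral passed in 17 of 17 alternatives (-2.75 to -2.04) and Aldh5a1 target minus ventral in 16 of 17 (-1.81 to -1.39). Slc6a5 dorsal minus ventral did not pass in 8 (-0.90 to -0.39) and Slc12a2 dorsal minus ventral in 7 (-0.88 to -0.42), and none of the 4 changed sign. Of 101 differences that did not pass, 4 passed under some alternative. At 2 decimals, 46 changed sign or went to or from 0 under some alternative, median centring included, while passing in neither. The mean of both Aldh5a1 probes gave -0.80 for target minus ventral (adjusted p = 0.039), opposite in sign to the brightest probe (0.06), and -1.53 for dorsal minus ventral. The replicate block (mouse) gave member counts of 0, 1 and 2, where Slc6a5 was the one lost, whole-array counts of 3 and 154 for target against dorsal and against ventral, and a partner count of 0 for target against dorsal, and changed no other count by more than 1.5 times.

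Whole-array counts for target against dorsal were 103 (77 higher in target) without background correction, 88 (68) on the authors' values, 46 (37) with an offset of 50, 20 (15) with no filter, 67 (49) with a stricter filter, 17 (3) with median centring and 1 with only 2 regions, against 12 (9) as reported. For target against ventral they were 853 (437), 832 (431) and 557 (322) under the first 3 of these, 645 (381) with the stricter filter, 178 (134) with median centring and 123 (96) with only 2 regions, against 365 (239). For dorsal against ventral median centring gave 2563 (2159 higher in dorsal), against 1632 (830). Median centring moved the median of all tested probes to -0.35 for target minus dorsal and 0.36 for dorsal minus ventral, and that of the members to -0.42 and 0.38. Member counts for target against ventral were 3 (1 higher) without background correction and on the authors' values. The F test called 5, 4, 3 and 3 members without background correction, on the authors' values, with an offset of 50 and with the stricter filter. F test counts over the whole array were not taken under the alternatives, so these member counts cannot be set against an array share. Partner counts for target against dorsal were 0 with median centring, no filter or only 2 regions. For target against ventral they were 4 without background correction and on the authors' values, 2 with an offset of 50 or the stricter filter and 0 with only 2 regions. For dorsal against ventral they were 11 (9 higher) with median centring and 4 with no filter. The cause was not tested in any of these.

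Leaving out each array in turn gave member counts of 0 to 0, 0 to 1 (0 without target array 3) and 1 to 3 for target against dorsal, target against ventral and dorsal against ventral. Whole-array counts were 1 to 3, 64 to 302 (64 without target array 3) and 939 to 1452 (939 without dorsal array 2), and partner counts 0 to 0, 0 to 2 and 3 to 6. The F test count was 1 to 1, and the member medians were -0.05 to 0.02, -0.11 to 0.04 and -0.11 to 0.06.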
